A study of Mus musculus with 2 samples.

Results

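The 52 genes described here are a list of G2/M and mitosis genes, taken as every row of the 2 deposited matrices whose symbol was on the list. All 52 were among the 32285 features, with 1 row each. The list was split by when a gene is known to act, into 12 early G2 genes, 12 late mitotic genes and 28 genes in neither group.

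The libraries came from BALB/c female mice that carried subcutaneous allografts of J558, a mouse plasmacytoma line that makes immunoglobulin. The vehicle animals received 0.5% methylcellulose by mouth. The treated animals received TAK-931, an inhibitor of the replication kinase CDC7, at 60 mg/kg once a day, and both tumors were taken at day 6. Each group was 1 library of dissociated tumor cells, so no p-value was possible. Per the paper, 1 allograft of each group was taken as a representative for single-cell sequencing. All intervals below are 95% intervals that cover counting error only, not the spread between animals. Those of log2 ratios take each summed UMI as an independent draw, so they also leave out the spread between cells of a library. Mice of the study were 4 weeks of age, an age given for all its animals together, and J558 is a single line.

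Progress into mitosis is driven by CDK1 with B-type cyclins and ends when the anaphase-promoting complex marks those cyclins for destruction. Most of the genes that carry out mitosis are silent in resting and G1 cells and are switched on together late in the cycle, largely through the DREAM and MMB-FOXM1 complexes, which bind a CHR element and act with CCAAT boxes near the start of transcription. Early G2 genes such as Top2a and Smc4 prepare chromatin for condensation, and late mitotic genes such as Cdc20 and Cenpe act at the spindle. Their summed level is therefore widely used to find dividing cells in a tissue.

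A UMI (unique molecular identifier) counts 1 captured transcript. There were 144767193 UMIs over 4565 barcodes after vehicle and 77369283 over 6558 after TAK-931. The 52 genes took 0.468% of vehicle UMIs and 0.268% of TAK-931 UMIs. Barcodes passed with more than 2000 detected genes and a mitochondrial share below 15%, which left 3441 vehicle and 3488 TAK-931 cells, and 8 barcodes occurred in both libraries, 1 of them among kept cells. Each cell was classed by its own lineage markers. J558 plasmacytoma-like cells (Trap1a, Sdc1, Mzb1, Jchain and 4 further markers) numbered 2931 of the vehicle cells and 89 of the TAK-931 cells. Monocyte/macrophage-like cells numbered 222 and 2063, T-like cells 14 and 615, endothelial-like cells 73 and 153, dendritic-like cells 12 and 55, fibroblast-like cells 16 and 34, and mural-like cells 22 and 29, vehicle first. Cells with markers of 2 lineages, 62 and 306, were left out of the classes. Levels are CPM, the UMIs of a gene per 1000000 UMIs of the class, and are not corrected for transcript length.

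Within vehicle tumor cells the members varied together. For each member, Pearson's r was taken across the 2931 vehicle J558 plasmacytoma-like cells between its own log level and that of the other 51 members summed. It was highest for Hmgb2, a DNA-bending chromatin protein, at 0.89, and for Birc5 (survivin) and Cdca8 (borealin), both subunits of the chromosomal passenger complex, at 0.87 and 0.86. The median over the 51 members with enough cells was 0.64, against 0.040 over 10215 other features, and r reached 0.5 for 41 members and for 1.16% of the other features. Early G2 and late mitotic members were alike in this, with medians of 0.70 and 0.71. The cells share 1 library and differ in depth, and the members' summed level itself had r = 0.40 with the log of total UMIs, so these values are a description.

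Members at the low end were G2e3, a ubiquitin ligase of G2, at 0.24, Gas2l3, a linker of actin and microtubules in the midzone, at 0.26, and the midzone kinesin Kif23 at 0.36. Psrc1, a spindle protein, had no value of r because it was almost absent from these cells, with 56 UMIs or 0.43 CPM. Among features outside the list, r was highest for Hmgb1 at 0.80, then for the condensin subunit Smc2 at 0.80, the S/G2 cyclin Ccna2 at 0.79, the histone variant H2afz and the tubulin-binding Stmn1 at 0.78, and Incenp, Pclaf, Spc24, Nucks1 and Rfc4 at 0.77. Of the 40 features with the highest r, 14 were on a second list of mitotic genes and 4 on a list of S phase genes.

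The same measure was taken in other classes. Across 615 T-like cells the median r was 0.52, with Birc5 at 0.81 and Top2a and Mki67 at 0.79. Across 2063 monocyte/macrophage-like cells it was 0.28 over the 31 members seen in at least 5% of cells, and Birc5 was the only member to reach 0.5. In the 222 vehicle cells of the same class the median was 0.49 over 41 members, of which 18 reached 0.5. The 89 TAK-931 tumor cells had a median of 0.59 and the 153 TAK-931 endothelial-like cells one of 0.52. In the TAK-931 monocyte/macrophage-like cells 4 members had r below 0.1, namely Hjurp (0.091), Ctcf (0.092), G2e3 (0.059) and Gas2l3 (0.027). Gas2l3 also had r = 0.048 in T-like cells. It was well measured in the monocyte/macrophage-like cells, at 93.5 CPM in the TAK-931 library, so its level there did not follow the other members.

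**Figure D1:**
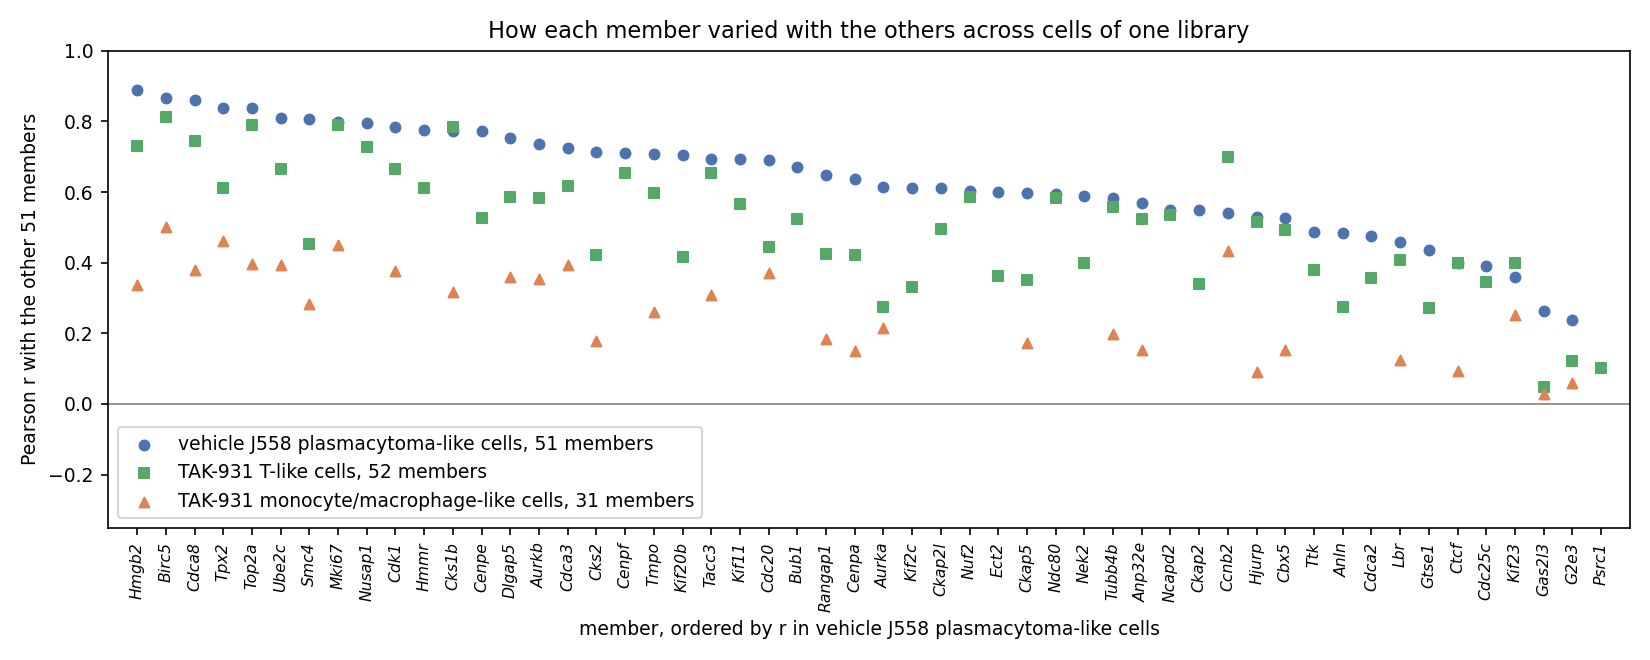
Pearson r (vertical axis) of each member with the other 51 members summed, across cells of one class and library, members ordered along the horizontal axis by their r in vehicle tumor cells. Vehicle J558 plasmacytoma-like cells (circles) run from 0.89 for Hmgb2 to 0.24 for G2e3, TAK-931 T-like cells (squares) have a median of 0.52, and TAK-931 monocyte/macrophage-like cells (triangles) lie lower, down to 0.027 for Gas2l3.

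Promoters were read from RefSeq (build GRCm38.p6), from 250 bases before to 50 after each start of transcription, and 46 of the 52 members had an entry. They were searched on both strands for the CHR letters TTTGAA or TTCGAA, and for CCAAT. A CHR match was present for 36 of the 46 genes (78.3%), against 21.7% of all 27025 genes in the table. A CCAAT match was present for 35 (76.1%), against 41.1%, and both for 29 (63.0%), against 8.61%. The 31 S phase genes with an entry had CHR matches in 19.4% and CCAAT matches in 71.0%, and the 24 genes of the second mitotic list with an entry had CHR in 79.2%, CCAAT in 75% and both in 66.7%. The share with CHR was much the same in the 37 members with r of at least 0.5 (78.4%) and in the other 9 (7 of 9, 77.8%). Of all 32851 promoters in the table, which can hold several per gene, 19.2% had CHR, 37.4% had CCAAT and 7.52% had both. A match of such short letters is a description, not a binding site.

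Stretches of 100 bases that end just before the start of transcription are printed here for 5 members, 5′ to 3′ on the gene's strand, with CHR and CCAAT letters of either strand in capitals. Top2a, Hmgb2 and Kif11 stand for tightly coupled members with both elements. Gas2l3 is a member of low r that has both, as has Kif23, and Birc5 is a member of high r without either in its searched window.
Top2a: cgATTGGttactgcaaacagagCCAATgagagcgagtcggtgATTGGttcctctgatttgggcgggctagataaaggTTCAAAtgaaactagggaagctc
Hmgb2: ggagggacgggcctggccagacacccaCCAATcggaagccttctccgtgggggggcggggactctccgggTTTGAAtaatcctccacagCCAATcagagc
Kif11: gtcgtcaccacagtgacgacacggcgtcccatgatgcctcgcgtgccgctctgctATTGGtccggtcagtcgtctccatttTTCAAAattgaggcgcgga
Gas2l3: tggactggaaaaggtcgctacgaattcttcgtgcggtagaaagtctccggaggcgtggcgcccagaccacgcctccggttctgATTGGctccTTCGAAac
Birc5: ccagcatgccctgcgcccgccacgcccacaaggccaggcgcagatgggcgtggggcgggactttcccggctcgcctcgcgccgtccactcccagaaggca
The Top2a stretch is chr11:99024190-99024289 on the minus strand, and its CHR begins 23 bases before the start, behind 3 CCAAT boxes at 58, 78 and 98 bases. The Hmgb2 stretch is chr8:57511743-57511842 on the plus strand, with CHR at 30 bases between CCAAT boxes at 11 and 73. The Kif11 stretch, chr19:37376282-37376381 on the plus strand, has CHR at 19 and CCAAT at 45 bases. The Gas2l3 stretch, chr10:89443968-89444067 on the minus strand, has CHR at 8 and CCAAT at 17 bases. The Birc5 stretch is chr11:117849137-117849236 on the plus strand. None of the 5 stretches overlapped an exon of its gene in GENCODE M21.

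Summed over all kept cells, 48 of the 52 members were lower in the TAK-931 library, against 44.4% of all features. Of those 48, 37 were higher in the tumor cells when their depth was not matched. At least 1.5-fold lower were 38 members (28.6% of all 15087 features measured were), and at least 1.5-fold higher were 3 (41.5% of all features). Those 3 were Gas2l3 (4.57 against 53.9 CPM), Psrc1 (0.47 against 4.16 CPM) and Cenpa (61.7 against 120.8 CPM), vehicle first. The tumor class was 85.2% of all kept cells after vehicle but 2.55% after TAK-931, so these sums weigh different cells, and the classes are taken one by one below. In such sums fewer cells of a kind and less RNA per cell cannot be told apart.

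In J558 plasmacytoma-like cells, most members stood slightly higher in the TAK-931 library, by less than the 1.5-fold limit. The sum of all 52 was 4851 CPM in vehicle and 4947 CPM in TAK-931, a log2 ratio of 0.03 (0.01 to 0.04). The median log2 ratio over the 52 was 0.21, against -0.04 over all 11984 features measured. Above 0 were 39 members (46.4% of all features) and below 0 were 13 (53.6%). At least 1.5-fold higher were 3 members (11.5% of all features) and at least 1.5-fold lower was 1 member (14.4% of all features). Markers differed in the same cells: the 8 J558 markers summed to 6888 CPM in vehicle and 12530 CPM in TAK-931, with 7 of 8 higher, the 10 monocyte/macrophage markers to 14.9 and 123.3 CPM, with 10 of 10 higher, and the 6 T cell markers to 0.80 and 11.9 CPM, with 6 of 6 higher. Their part in the members' values was not tested.

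These values turned with the depth of the cells. The 89 TAK-931 tumor cells had a median of 70878 UMIs and the vehicle cells 42638, and in vehicle cells the members' level was higher in deeper cells between 20000 and 80000 UMIs. Among cells of 40000 to 60000 UMIs, the median cell had 5184 CPM of members in vehicle (1292 cells) and 2354 CPM in TAK-931 (11 cells). Among cells of 60000 to 80000 UMIs, it had 7199 CPM (342 cells) and 4082 CPM (24 cells). Among those of 80000 to 120000 UMIs, it had 6468 CPM (75 cells) and 5481 CPM (29 cells). Between 20000 and 40000 UMIs the median cells were close, at 1600 CPM (1092 cells) and 1565 CPM (9 cells), and below 20000 they stood at 5137 CPM (124 cells) and 4364 CPM (11 cells). When each vehicle depth bin was weighted by the TAK-931 UMIs it faced, the sum was 6411 CPM in vehicle against 4947 CPM in TAK-931, and 44 of 52 members were lower in TAK-931, with a median log2 ratio of -0.26, against -0.10 over all 11984 features, of which 58.8% were lower. At least 1.5-fold lower were then 8 members (16.2% of all features) and at least 1.5-fold higher 0 (11.1% of all features). Restricting both libraries to the TAK-931 quartiles, 43970 to 91939 UMIs, left 1316 vehicle and 45 TAK-931 cells. It gave a median of -0.36 over 51 members, with 15 at least 1.5-fold lower (16.4% of all 11185 features) and 1 higher (12.7%). The direction for the tumor class as a whole thus depended on whether depth was matched. The paper reports enlarged cells in TAK-931-treated J558 allografts of nude mice. Whether depth here carried cell size or cycle phase was not tested. The depth-weighted values are therefore a second description and not a correction.

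**Figure D2:**
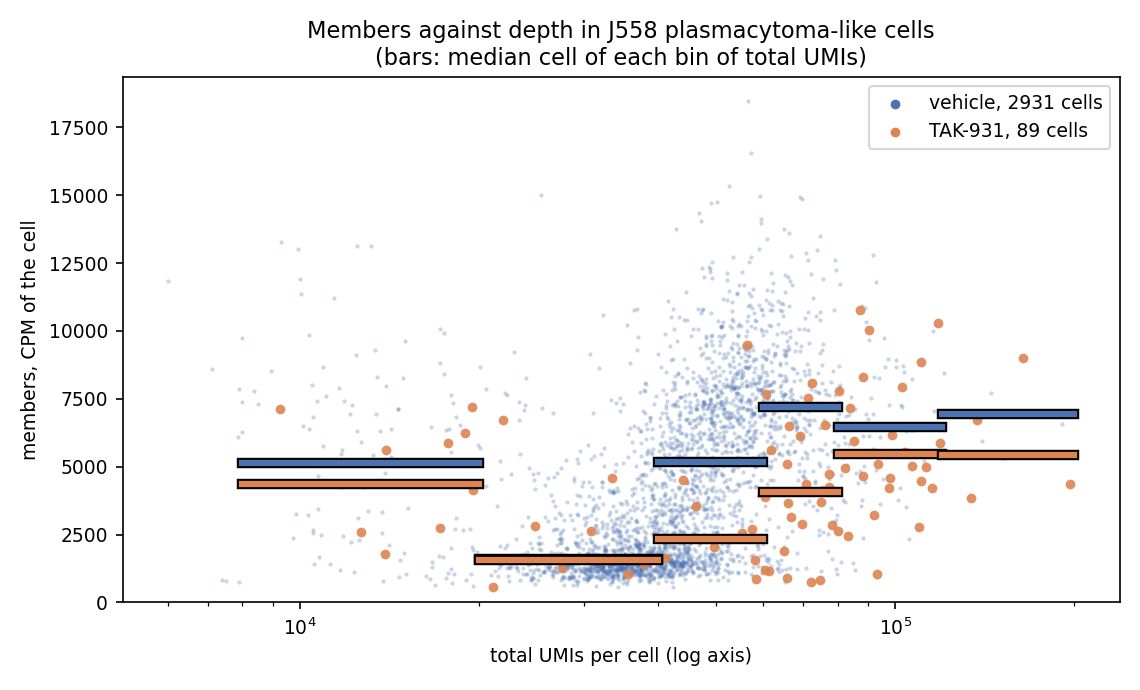
Members as CPM of each cell (vertical axis) against the cell's total UMIs (horizontal log axis) in J558 plasmacytoma-like cells, with 1 point per cell and bars at the median cell of each bin of total UMIs. From 40000 UMIs on, the TAK-931 bars lie below the vehicle bars (2354 against 5184 CPM in the bin that starts there), while the 2 bars nearly coincide between 20000 and 40000 UMIs.

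Single members in the tumor cells are given for all depths first, then with the depth-weighted log2 ratio. Among kinases and cyclins of mitotic entry, Cdk1, the kinase that drives entry, was 62.5 CPM in vehicle and 81.8 CPM in TAK-931, a log2 ratio of 0.39 (0.26 to 0.52) and of -0.20 with depth weighting. Ccnb2, a B-type cyclin, was 32.6 and 41.5 CPM, with log2 ratios of 0.35 and -0.18. The CDK subunit Cks2 was 169.2 and 244.1 CPM, a log2 ratio of 0.53 (0.45 to 0.60) that became 0.07, and its relative Cks1b was 225.0 and 232.1 CPM, with log2 ratios of 0.04 and -0.21. All 8 members of this group stood above 0 at all depths, from 0.04 to 0.53, against 46.4% of all features. With depth weighting only Cks2 stood above 0, and the others lay between -0.06 (Cdc25c) and -0.54 (Tpx2).

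The members of the anaphase-promoting complex pathway and its targets followed. Ube2c, the complex's ubiquitin-conjugating enzyme, was 183.8 CPM in vehicle and 254.4 CPM in TAK-931, a log2 ratio of 0.47 (0.39 to 0.54) at all depths and -0.28 with weighting. Cdc20, its activator at the spindle checkpoint, was 80.8 and 86.4 CPM, with log2 ratios of 0.10 (-0.03 to 0.22) and -0.58. Cdca3, a trigger of mitotic entry, was 46.7 and 67.0 CPM, with log2 ratios of 0.52 (0.37 to 0.66) and 0.03.

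At the kinetochore, Hjurp, the chaperone that loads the centromeric histone, was 39.1 CPM in vehicle and 66.2 CPM in TAK-931, a log2 ratio of 0.76 (0.61 to 0.90). With depth weighting it was the highest of the 52, at 0.35. Cenpa, the histone it loads, was 60.2 and 74.3 CPM, with log2 ratios of 0.30 (0.16 to 0.44) and -0.41. Rangap1, a Ran regulator found at kinetochores, was 86.8 and 94.5 CPM, with log2 ratios of 0.12 and -0.30. The checkpoint-binding motor Cenpe was 65.9 and 54.6 CPM, with log2 ratios of -0.27 (-0.43 to -0.12) and -0.87, and the kinetochore subunit Ndc80 was 36.0 and 28.5 CPM, with log2 ratios of -0.34 (-0.56 to -0.12) and -0.67. In the chromosomal passenger complex, Birc5 was 109.4 and 127.0 CPM, Cdca8 was 98.8 and 101.3 CPM, and Aurkb, its kinase, was 41.7 and 46.1 CPM, with log2 ratios of 0.21, 0.04 and 0.15 at all depths and of -0.26, -0.47 and -0.25 with weighting.

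Among chromosome proteins, Anp32e, a histone chaperone that removes H2A.Z, was 751.3 CPM in vehicle and 459.3 CPM in TAK-931, a log2 ratio of -0.71 (-0.76 to -0.66) and the lowest of the 52, and -0.87 with depth weighting. It was the only member at least 1.5-fold lower at all depths. Hmgb2 was 587.3 and 503.4 CPM, with log2 ratios of -0.22 (-0.27 to -0.17) and -0.57. The insulator protein Ctcf was 113.6 and 91.2 CPM, with log2 ratios of -0.32 (-0.44 to -0.20) and -0.39. Top2a, the topoisomerase that untangles sister chromatids, was 175.9 and 218.0 CPM, with log2 ratios of 0.31 (0.23 to 0.39) and -0.11, and the proliferation antigen Mki67 was 298.7 and 367.4 CPM, with log2 ratios of 0.30 (0.24 to 0.36) and -0.14. Cdca2, a regulator of chromatin phosphorylation at mitotic exit, was 9.64 and 16.1 CPM, a log2 ratio of 0.74 (0.43 to 1.03) that fell to 0.22, and the condensin subunit Ncapd2 was 19.2 and 27.8 CPM, with log2 ratios of 0.54 (0.31 to 0.76) and 0.05.

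Among spindle proteins, Gas2l3 was 3.14 CPM in vehicle and 5.73 CPM in TAK-931 (411 and 36 UMIs), a log2 ratio of 0.87 (0.34 to 1.36), the highest of the 52 at all depths, and of 0.14 with weighting. The same cells held 14.9 and 123.3 CPM of the 10 monocyte/macrophage markers, all 10 of them higher in TAK-931 and none at 0 in either library, and Gas2l3 was at 59.5 and 93.5 CPM in monocyte/macrophage-like cells. Their part in the Gas2l3 value was not tested. Nusap1, a microtubule bundler, was 63.2 and 48.5 CPM, with log2 ratios of -0.38 (-0.55 to -0.22) and -0.83, and Psrc1, on 56 and 2 UMIs, had log2 ratios of -0.42 (-3.51 to 1.5) and 0.27. Tubb4b, a beta tubulin, was 328.1 and 365.9 CPM, with log2 ratios of 0.16 and -0.23, and Hmmr, a spindle assembly factor, 57.5 and 67.5 CPM, with log2 ratios of 0.23 and -0.48. In the remaining roles, the nuclear lamina proteins Tmpo (137.6 and 146.8 CPM) and Lbr (66.8 and 54.3 CPM) had log2 ratios of 0.09 and -0.30 at all depths and of -0.17 and -0.51 with weighting. The cytokinesis genes Kif23 (32.0 and 30.4 CPM) and Ect2 (26.0 and 28.5 CPM) had log2 ratios of -0.07 and 0.13 at all depths and of -0.37 and -0.31 with weighting.

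Counted cell by cell, the tumor cells spread over a wide range. Each cell was thinned to 4000 UMIs and called high at 20 or more member UMIs. High cells were 1141 of 2931 in vehicle (38.9%, exact Clopper-Pearson interval 37.2 to 40.7%) and 44 of 89 in TAK-931 (49.4%, 38.7 to 60.2%), a difference of 10.5 percentage points (Newcombe interval 0.21 to 20.9). Without thinning, at 0.5% of a cell's UMIs, the shares were 39.1% and 40.4%. Cells within 2 UMIs of the limit numbered 282 and 14, so that the limit cut through a continuous range. Bin by bin, the order turned in the 4 bins from 40000 UMIs on and not in the 2 shallower ones. At 40000 to 60000 UMIs 51.7% of the vehicle cells and 18.2% of the TAK-931 cells were high, at 60000 to 80000 UMIs 75.1% and 50%, at 80000 to 120000 UMIs 76% and 65.5%, and over 120000 UMIs 6 of 6 and 4 of 5 cells. Below 20000 UMIs 50.8% and 54.5% were high, and at 20000 to 40000 UMIs 8.24% and 11.1%, where the summed members were 2234 and 2392 CPM. Weighted to the TAK-931 cells' depths, the difference was -14.7 points.

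The spread over single cells was as follows. The 10th, 50th and 90th percentiles of member CPM were 1175, 3409 and 8631 over vehicle cells and 1257, 4364 and 7827 over TAK-931 cells. High cells held 7700 CPM in vehicle and 6532 CPM in TAK-931, a log2 ratio of -0.24 (-0.26 to -0.22), and the other cells 2383 and 2825 CPM, a log2 ratio of 0.25 (0.21 to 0.28). In high cells alone, Anp32e was 957.2 and 547.3 CPM and Hjurp 57.1 and 81.7 CPM, the lowest and the highest log2 ratios of the 52, at -0.81 and 0.52.

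**Figure D3:**
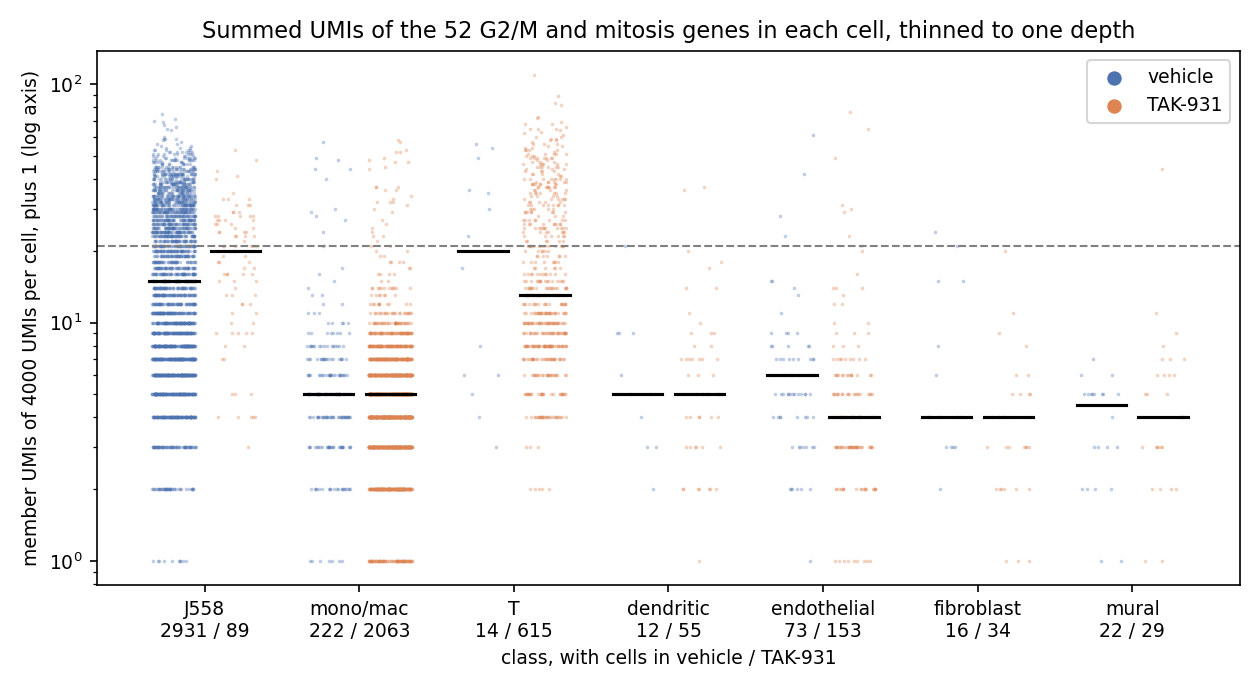
Member UMIs of 4000 UMIs per cell, plus 1 (vertical log axis), for each cell of 7 classes (horizontal axis) in vehicle and TAK-931, with black bars at the medians and a dashed line at the 20-UMI limit for a high cell. J558 plasmacytoma-like and T-like cells spread across the line, with 49.4% and 35.9% of TAK-931 cells at or above it, and monocyte/macrophage-like cells lie almost all below it.

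In monocyte/macrophage-like cells, the members were lower in the TAK-931 library. Their sum was 2020 CPM in vehicle and 1248 CPM in TAK-931, a log2 ratio of -0.69 (-0.74 to -0.65), and the median over the 50 members with at least 50 UMIs was -0.94, against -0.03 over all 10783 features. At least 1.5-fold lower were 37 of the 50 (17.7% of all features) and at least 1.5-fold higher were 2 (16.2% of all features). All 12 early G2 members and 8 of the 12 late mitotic members were among the 37.

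Different clusters held much of the class in each library, in a clustering made without the members and the S phase and mitotic lists. Of the 222 vehicle cells, 73 were in cluster 4 and 48 in cluster 7, which held 7 and 0 TAK-931 cells, while clusters 8 and 16 held 281 and 194 TAK-931 cells and 5 and 1 vehicle cells. The clusters with at least 20 cells of the class from each library, a limit chosen after seeing the data, were clusters 5 and 6, with 87 vehicle and 1470 TAK-931 cells. In them the members summed to 2172 and 1273 CPM, and the median log2 ratio over the 47 measured was -0.88, against 0.03 over all 9872 features, with 31 at least 1.5-fold lower (17.4% of all features) and 2 higher (20.5%). The clusters did not share the difference: in cluster 5 the members were 2578 CPM in 55 vehicle cells and 1424 CPM in 746 TAK-931 cells, and 6 and 19 of these were high cells, whereas in cluster 6 they were 1056 CPM in 32 cells and 1074 CPM in 724 cells, with 0 and 1 high cells.

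The lowest members belonged to the spindle, the kinetochore and the chromosome. Nuf2, a kinetochore subunit, was 11.5 CPM in vehicle (32 UMIs) and 1.74 CPM in TAK-931 (59 UMIs), a log2 ratio of -2.72 (-3.37 to -2.05). Nusap1 was 27.6 and 4.74 CPM, a log2 ratio of -2.54 (-2.94 to -2.13). Cenpf, a kinetochore protein of late G2, was 34.4 and 8.60 CPM, at -2.00 (-2.34 to -1.65). Mki67 was 78.5 and 20.9 CPM, at -1.91 (-2.13 to -1.69), and Top2a 69.9 and 19.0 CPM, at -1.88 (-2.11 to -1.64). Bub1, a checkpoint kinase, was 7.17 and 2.15 CPM, at -1.74 (-2.47 to -0.94).

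Members with smaller contrasts in the same cells included Cdk1 (33.0 and 12.2 CPM, log2 ratio -1.44), Birc5 (57.7 and 17.9 CPM, -1.69), Aurkb (11.1 and 6.39 CPM, -0.80), Cdc20 (14.3 and 7.22 CPM, -0.99), Ccnb2 (20.1 and 10.3 CPM, -0.96) and Hmgb2 (418.6 and 266.0 CPM, -0.65). At the other end, 4 members were above 0. Psrc1 was 1.08 CPM (3 UMIs) and 4.33 CPM (147 UMIs), a log2 ratio of 2.01 (0.43 to 4.30), and Gas2l3 was 59.5 and 93.5 CPM, at 0.65 (0.43 to 0.89). Cks2 was 87.4 and 111.3 CPM, at 0.35 (0.16 to 0.54), and G2e3 was 7.53 and 9.04 CPM, at 0.26 (-0.37 to 0.98). Next came Tubb4b (115.0 and 105.8 CPM, -0.12) and Ect2 (3.58 and 3.03 CPM, -0.24), both with intervals that hold 0.

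High cells held a larger part of the sum in vehicle than in TAK-931. They were 12 of 222 in vehicle (5.41%, 2.82 to 9.25%) and 33 of 2063 in TAK-931 (1.60%, 1.10 to 2.24%), a difference of -3.81 points (-7.64 to -1.43). The 12 cells held 48.8% of the class's member UMIs in vehicle and the 33 held 18.9% in TAK-931. Outside them, members were 1147 CPM in vehicle and 1040 CPM in TAK-931, a log2 ratio of -0.14 (-0.20 to -0.09), and the median over members was -0.27 in place of -0.94, with 14 of 43 measured at least 1.5-fold lower (15.6% of all 10687 features) and 7 higher (16.3%). Within the high cells the level was 9926 and 8569 CPM, and they held 13673 and 12279 CPM of monocyte/macrophage markers, less than the 15471 and 16596 CPM of the other cells. J558 markers were 223.5 and 124.9 CPM in high cells and 164.0 and 138.6 CPM in the others, and their highest value in a single high cell was 2382 CPM in vehicle and 315.4 CPM in TAK-931.

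The members differed in where their UMIs lay. In vehicle monocyte/macrophage-like cells, the 12 high cells held 88.5% of Cenpf UMIs, 87.0% of Nusap1, 75.9% of Top2a and 74.0% of Mki67, but 11.4% of Gas2l3, 19.3% of Ctcf, 29.3% of Cenpa and 32.7% of Tubb4b. Cks2, Cenpa, Tubb4b and Hmgb2 thus stood at 64.5, 93.9, 86.0 and 253.1 CPM in vehicle cells that were not high, and at 103.1, 77.8, 101.1 and 232.7 CPM in those of TAK-931. Since high cells were chosen by the members' sum, these shares are a description.

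**Figure D4:**
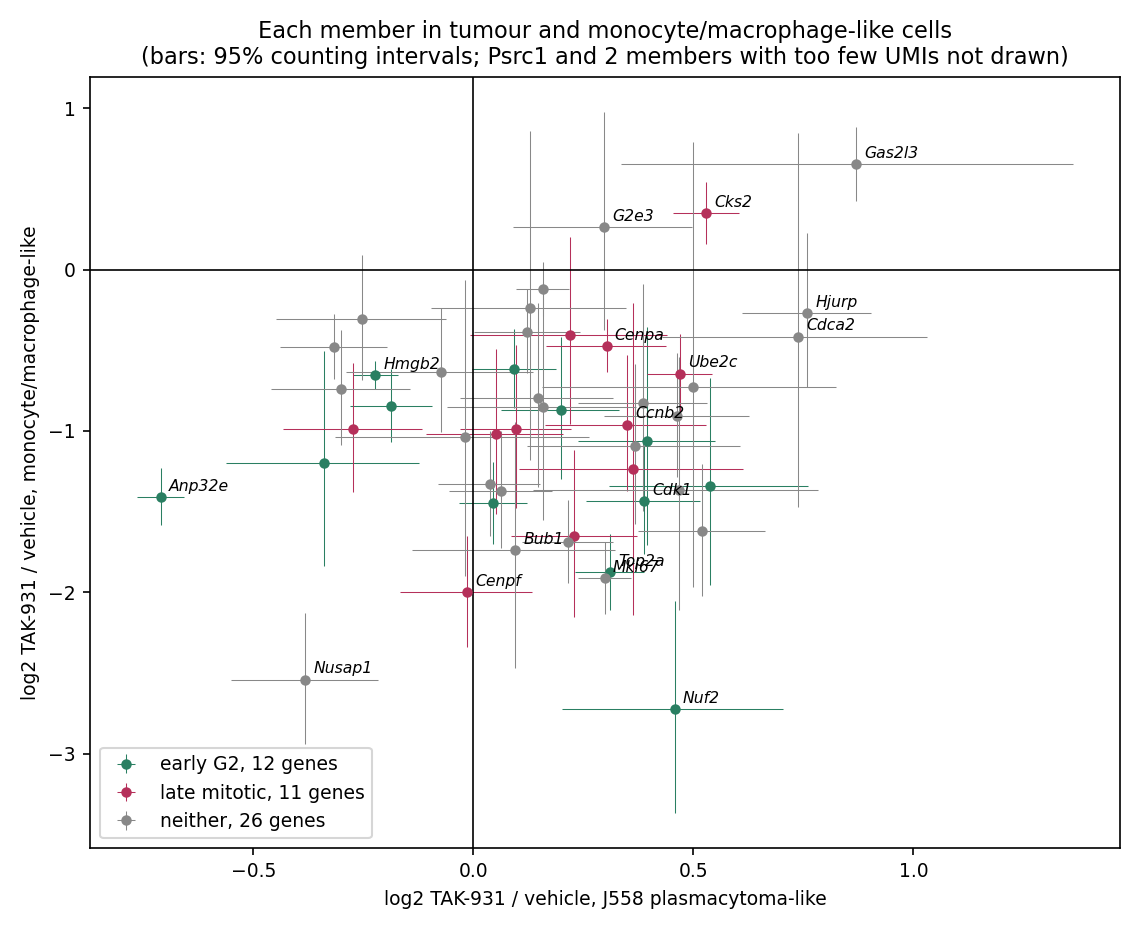
Log2 ratio TAK-931 to vehicle of 49 members in J558 plasmacytoma-like cells (horizontal axis) and in monocyte/macrophage-like cells (vertical axis), with 95% counting intervals, colored by early G2, late mitotic or neither, with Psrc1 and 2 members of too few UMIs not drawn. Most points lie right of and below 0, from Nuf2 at -2.72 on the vertical axis, while Gas2l3, Cks2 and G2e3 lie above 0 on both axes.

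Of the 50 members measured in both classes, 34 were higher in tumor cells at all depths and lower in monocyte/macrophage-like cells, a pattern shown by 20.7% of the 9519 features measured in both. Lower in both were 12 (32.9% of features), higher in both 3 (27.0%), and lower in tumor but higher in monocyte/macrophage-like cells Psrc1 alone (19.4%). With tumor depth weighted, 5 members were higher in tumor and lower in monocyte/macrophage-like cells and 41 were lower in both, against 17.1% and 36.5% of features. The 2 comparisons come from the same pair of libraries.

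T-like cells held the highest summed level of the members of any compared class, 7561 CPM in vehicle and 6468 CPM in TAK-931, but the vehicle value rests on 14 cells and 223518 UMIs. The median log2 ratio over 52 members was -0.13, against 0.12 over all 8816 features, and it turned to 0.12 and 0.15 when cells with over 1000 or over 500 genes were kept. At least 1.5-fold higher were 14 members (29.2% of all features) and at least 1.5-fold lower were 7 (15% of all features). Only 6 of the 52 members reached the UMI minimum for a measured gene in vehicle alone. Each of the 14 fell below it there, so that it passed with the UMIs of the library where it was high. Of the 14, 3 (Gtse1, Psrc1 and Gas2l3) had no UMI in vehicle, where 3 UMIs would be 13.4 CPM, above their TAK-931 levels. No member's interval lay above 0, and for 5 it lay below, against 5.49% and 6.37% of all features. These included Hmgb2 (3051 and 2304 CPM, log2 ratio -0.41, -0.52 to -0.29), Aurkb (71.6 and 31.2 CPM, -1.20, -1.92 to -0.38), Bub1 (67.1 and 21.4 CPM, -1.65, -2.40 to -0.79) and Nusap1 (161.1 and 96.9 CPM, -0.73, -1.21 to -0.21). Cdk1 was 44.7 and 70.0 CPM, Top2a 322.1 and 346.0 CPM, Mki67 205.8 and 232.3 CPM, Ccnb2 107.4 and 79.6 CPM, Birc5 152.1 and 188.6 CPM, and Cdc20 53.7 and 28.7 CPM, each with an interval of the ratio that holds 0.

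High cells were 7 of 14 T-like cells in vehicle (50%, 23.0 to 77.0%) and 221 of 615 in TAK-931 (35.9%, 32.1 to 39.9%), a difference of -14.1 points (-37.6 to 9.46) that is not resolved with 14 cells. It was 3.18 points with cells over 1000 genes and 2.86 with a limit of 10 member UMIs. In TAK-931, 183 of 466 CD8 T-like cells (39.3%, 34.8 to 43.9%) and 23 of 99 CD4 T-like cells (23.2%, 15.3 to 32.8%) were high, as were 20 of 65 NK-like cells (30.8%, 19.9 to 43.4%). In vehicle, 0 of 7 NK-like cells were high, which allows a share of up to 42.9% (3 cells of 7), so no comparison was made there. The 221 high T-like cells held 83.7% of the class's member UMIs in TAK-931. They were deeper than the others, with medians of 24645 and 10579.5 UMIs. Over all 615 TAK-931 T-like cells, r between the members' level and the log of total UMIs was 0.63.

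In endothelial-like cells, the sum of the late mitotic members was higher in TAK-931 and that of the early G2 members was close in both libraries. The 12 late mitotic genes were 200.2 CPM in vehicle and 446.4 CPM in TAK-931, a log2 ratio of 1.16 (0.96 to 1.35), and the 12 early G2 genes 704.5 and 687.8 CPM, a log2 ratio of -0.03 (-0.15 to 0.08). With no minimum of UMIs, 12 of the 12 late mitotic and 6 of the 12 early G2 genes were higher in TAK-931. The log2 ratio of the late mitotic sum fell to 0.08 with classes from clusters, 0.32 with cells of 2 lineages kept and 0.25 as the mean of each cell's CPM, and that of the early G2 sum to -0.70, -0.56 and -0.44, so that the sizes depended on how the cells were taken.

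The calls of single members rested on few vehicle UMIs and on how the endothelial-like cells were taken. Of 32 members with at least 50 UMIs in both libraries together, 14 were at least 1.5-fold higher (10.7% of all 6948 features) and 2 at least 1.5-fold lower (23.9% of all features), but each of the 14 had fewer than 50 UMIs in vehicle, so that it reached the minimum with the UMIs of the library where it was high. With classes from clusters the counts were 3 higher (14.7% of all features) and 15 lower (25.8%) of 41, with cells of 2 lineages kept 2 higher (12.8%) and 9 lower (22.4%) of 38, and as the mean of each cell's CPM 4 higher (11.4%) and 8 lower (27.4%) of 32. The median log2 ratio was 0.45, against -0.18 over all features, and it was -0.29, -0.08 and -0.15 under these alternatives. Cenpf was 3.01 CPM (4 UMIs) and 44.0 CPM (110 UMIs), at 3.87 (2.47 to 5.77), and Ube2c 15.8 and 90.9 CPM, at 2.52 (1.88 to 3.24). Ccnb2 was 12.8 and 26.4 CPM, Cdc20 12.8 and 23.6 CPM and Mki67 14.3 and 24.8 CPM, with log2 ratios of 1.05, 0.88 and 0.80, and the ratios of Cdc20 and Mki67 turned to -0.34 and -1.41 with cells of 2 lineages kept, and to -1.04 and -1.60 with classes from clusters. Hmgb2 (271.7 and 248.6 CPM), Top2a (56.4 and 53.2 CPM), Birc5 (38.4 and 32.0 CPM) and Cdk1 (34.6 and 48.8 CPM) had intervals that hold 0, and Aurkb, at 8 and 18 UMIs, was under the minimum.

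The endothelial values came from few cells. In TAK-931, the top 16 of 153 cells held 65.2% of member UMIs and 1 cell held 12.8%, and high cells were 4 of 73 (5.48%) and 8 of 153 (5.23%), a difference of -0.25 points. When each cell had equal weight, the median log2 ratio over members was -0.15, with Cdc20 at -0.54 and Mki67 at -0.08. With classes from clusters in place of single-cell markers it was -0.29, and clustering set the endothelial cells of the libraries apart, with 80 vehicle and 0 TAK-931 cells in one cluster and 5 and 242 in the other.

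The smallest classes gave few members to compare. In dendritic-like cells 12 members were measured, of which 5 were at least 1.5-fold higher (25.3% of all features) and 0 lower (11.1% of all features), led by Ube2c at 11.9 CPM (2 UMIs) and 165.9 CPM (157 UMIs), a log2 ratio of 3.80 (1.93 to 6.86), and Hmgb2 at 380.0 and 599.2 CPM, 0.66 (0.28 to 1.05). Of the 5, 4 had fewer than 10 UMIs in vehicle, Ube2c among them, and reached the minimum of 50 with their TAK-931 UMIs. With classes from clusters, 0 of 8 measured members were higher (26.8% of all features) and 1 lower (19.0%). A single cell of 12 held 44.5% of the vehicle member UMIs. In fibroblast-like cells 1 of 11 measured members was at least 1.5-fold higher (17.4% of all features) and 8 were lower (27.0% of all features), the lowest being Birc5 at 92.4 and 10.5 CPM, -3.14 (-4.29 to -2.13), and Ccnb2 at 68.3 and 18.9 CPM, -1.85 (-2.76 to -0.99). The 1 higher member had fewer than 50 UMIs in vehicle and reached the minimum with its TAK-931 UMIs. Hmgb2 there was 164.8 and 99.8 CPM, -0.72 (-1.16 to -0.28). A single cell held 25.4% of the member UMIs in vehicle (16 cells) and 36.1% in TAK-931 (34 cells), and with classes from clusters 2 of 20 members were higher (18.4% of all features) and 13 lower (26.8%). High cells there were 2 of 16 and 0 of 34, the latter allowing up to 8.82% (3 cells of 34). In mural-like cells 3 of 6 measured members were at least 1.5-fold higher (20% of all features) and 0 lower (13.9% of all features), namely Cks2 (33.1 and 106.5 CPM), Hmgb2 (70.4 and 168.7 CPM) and Smc4 (47.6 and 87.3 CPM), and 1 of 29 TAK-931 cells held 34.7% of the member UMIs. Each of the 3 had fewer than 50 UMIs in vehicle. With classes from clusters 17 of 27 were higher (28.3% of all features) and 0 lower (13.2%), and with cells of 2 lineages kept 13 of 23 were higher (25.4%) and 0 lower (13.1%). The remaining genes of the 8 followed through every class (Cdk1, Top2a, Mki67, Aurkb and Cdc20) had fewer than 50 UMIs in both sums together in these 3 classes.

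The balance of late mitotic to early G2 genes was next compared, as log2 of their summed UMIs. In tumor cells it was -1.51 in vehicle (105860 late and 301452 early UMIs) and -1.02 in TAK-931 (6224 and 12637), a difference of 0.49 (0.44 to 0.53). In monocyte/macrophage-like cells it was -1.13 and -0.63, a difference of 0.50 (0.39 to 0.61). In T-like cells it was -2.08 and -1.90, a difference of 0.19 (-0.02 to 0.40). Endothelial-like cells went from -1.82 to -0.62, a difference of 1.19 (0.96 to 1.42), and mural-like cells from -2.21 to -0.69, a difference of 1.51 (0.84 to 2.23). Dendritic-like cells differed by 0.46 (-0.10 to 1.05), and fibroblast-like cells by -0.01 (-0.40 to 0.38). The ratio was thus higher under TAK-931 in 6 of 7 classes, and in 4 of them the interval lay above 0. These intervals leave out the spread between cells. In TAK-931, 1 of 29 mural-like cells held 34.7% of that class's member UMIs. The highest mural-like cell had 4462 CPM of late mitotic genes, against a median of 79.2 CPM. The top 16 of 153 endothelial-like cells held 65.2% of member UMIs. Leaving such cells out was not tested. With short lists of 6 genes for each stage, the dendritic-like difference turned to -0.52.

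In the tumor cells this difference depended on which genes stood for each stage. With the short lists, which leave out Anp32e, Hmgb2, Ube2c and Cks2, the difference was 0.08, the median over late genes minus that over early genes was 0.08, and with vehicle depth bins weighted as in TAK-931 it was 0.14. Within depth bins the order was not uniform: at 60000 to 80000 UMIs the ratio was -1.12 in vehicle and -1.39 in TAK-931, and at 40000 to 60000 UMIs -1.64 and -1.14. Of the summed early G2 genes in vehicle tumor cells, 2300 CPM, Anp32e and Hmgb2 contributed 751.3 and 587.3 CPM. In high tumor cells alone the difference was 0.36 (0.31 to 0.41), and in the other cells 0.90 (0.81 to 1.00). In monocyte/macrophage-like cells the short lists gave 0.76 and the medians over genes 0.30, and high cells alone gave 0.79 (0.62 to 0.95).

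**Figure D5:**
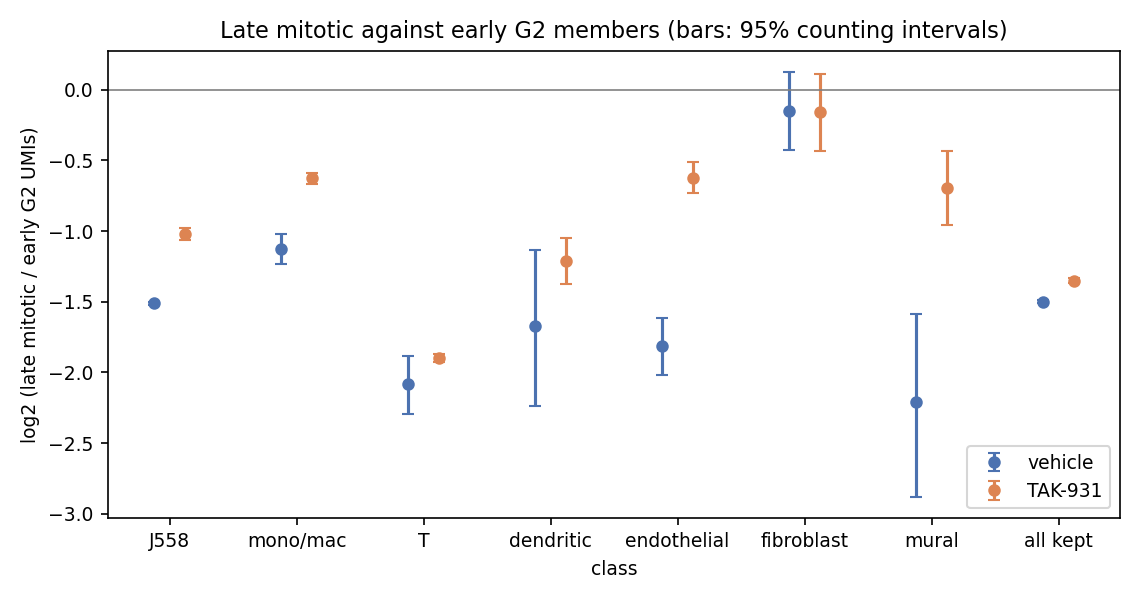
Log2 of summed late mitotic over summed early G2 UMIs (vertical axis) in each class (horizontal axis), vehicle and TAK-931, with 95% counting intervals. TAK-931 lies above vehicle in every single class but the fibroblast-like one, from -1.51 to -1.02 in J558 plasmacytoma-like cells and from -1.82 to -0.62 in endothelial-like cells.

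Lists of neighboring genes were read beside the members. In tumor cells at all depths, 22 of 31 measured genes of the second mitotic list stood above 0, against 46.4% of all features, with a median log2 ratio of 0.27, and 4 were at least 1.5-fold higher and 2 lower, beside the 11.5% and 14.4% of all features. Its ends were Cdc25b, a phosphatase that activates CDK1 (18.0 and 40.9 CPM, 1.18, 0.99 to 1.37), and Wee1, the kinase that restrains CDK1 (18.6 and 32.3 CPM, 0.80, 0.58 to 1.00), against Pbk (22.8 and 14.3 CPM, -0.67, -0.99 to -0.37) and the phosphatase Cdkn3 (56.8 and 36.8 CPM, -0.63, -0.82 to -0.44). Of 43 S phase genes, 29 stood above 0, with a median of 0.15, from the cyclin Ccne2 (18.0 and 49.2 CPM, 1.45, 1.27 to 1.62) and E2f8 (7.91 and 14.2 CPM, 0.84) to the polymerase and primase genes Pola1 (17.4 and 9.55 CPM, -0.86) and Prim1 (57.4 and 37.5 CPM, -0.61).

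With depth weighting, 25 of the 31 mitotic genes were below 0, against 58.8% of all features, with a median of -0.24, while 23 of the 43 S phase genes stood above 0, with a median of 0.08. Of 20 regulators of these programs, 16 stood above 0 in tumor cells at all depths and 15 with weighting, with E2f7 and Lin54, a DREAM subunit, at 0.80 and 0.79 at all depths. The CDK inhibitor gene Cdkn1a was 21.6 CPM in vehicle and 9.70 CPM in TAK-931, a log2 ratio of -1.15 (-1.54 to -0.79), and the next lowest was Rbbp4 at -0.04. In monocyte/macrophage-like cells, 28 of 31 genes of the second mitotic list were below 0, against 52.2% of all features, with a median of -1.09, led by Pbk (10.0 and 1.00 CPM, -3.32) and Ccna2 (19.7 and 4.06 CPM, -2.28), while Ccnf (4.66 and 11.7 CPM, 1.33, 0.54 to 2.25) and Sgo2a (0.56, -0.60 to 2.04) were at the other end. The S phase list had a median of -0.63, with 32 of 41 below 0, from Tyms (-2.45) and Rrm2 (-2.04) to Dtl (0.96) and Cdc6 (2.36). The regulators had a median of -0.17, with 10 of 18 below 0, from Cdkn2c (-1.36) and E2f2 (-0.80) to Lin54 (0.65) and Lin52 (1.88).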

How the data were processed

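Droplet 3′ libraries of both tumors were sequenced and counted by the authors with Cell Ranger 6.0.0 against mm10, per the submitters' processing notes. The deposited matrices hold raw UMI counts per gene and barcode, not normalized, for barcodes that Cell Ranger called as cells. The methods name a human build. Features carry mouse identifiers.

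The cell limits of the methods were applied, more than 2000 detected genes and a mitochondrial share below 15%. A marker counted as on at 2 UMIs and 50 CPM or more. A cell was classed when enough markers of 1 lineage were on: 5 of 8 for J558, 3 of 10 for monocyte/macrophage, 3 of 6 for T, 2 of 6 for NK with a UMI of Ncr1, Klrb1c or Klre1, 2 of 8 for dendritic, 3 of 7 for endothelial, and 3 of 6 for fibroblast and for mural cells. Cells of 2 lineages were set aside unless the lineages were T and NK, fibroblast and mural, or monocyte/macrophage with dendritic or neutrophil. This rule was settled on marker detection, after the data were seen, and not on the members. No doublet caller was run.

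UMIs were summed per class and library where both held at least 10 cells. Log2 ratios carry exact conditional binomial intervals, with 0.5 UMI added to both counts where either was 0, and a gene counted as measured from a total of 50 UMIs over both libraries. Free RNA was estimated from the leak of foreign lineage markers (those at 20 CPM or more), at 1.40% and 1.11% of tumor-class UMIs and 2.72% and 3.03% of monocyte/macrophage-class UMIs, vehicle first. Cells were thinned by random draws with a fixed seed, and no cell was too shallow. Differences of late to early ratios combine both ratios' intervals. The comparison was tested on simulated counts, drawn per gene from a Poisson distribution. These hold no spread between cells, so they cannot test the intervals of sums in which few cells hold many UMIs.

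Named in full were, in tumor and monocyte/macrophage-like cells, the 6 highest and 6 lowest members, 8 members in every class (Cdk1, Top2a, Mki67, Ccnb2, Cdc20, Aurkb, Birc5, Hmgb2), the 2 members of highest vehicle tumor level per role, the 10 features of highest r, and the 2 ends of each neighboring list. Other members named were chosen after their values were seen. The members and lists were chosen with earlier results of these data known. Alternatives covered cell limits, totals and scaling, free RNA, UMI minimum, classes from Leiden clusters (scanpy 1.11.5, igraph 0.11.9), mixed cells, depth, score limits and gene lists. Software was pandas 2.3.3 and matplotlib 3.10.9 with scipy 1.17.1, run on numpy 2.4.6 under python 3.11.15.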

Additional observations from a re-analysis of the deposited data

Results flagged for a closer look

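The share of cells high in the 52 members moved in opposite directions in 2 classes of the same pair of libraries when depth was not matched. It was 10.5 percentage points higher under TAK-931 in J558 plasmacytoma-like cells and differed by -3.81 points in monocyte/macrophage-like cells. With vehicle tumor cells weighted to TAK-931 depths the tumor difference was -14.7 points, the same direction as in monocyte/macrophage-like cells, and with a limit of 40 member UMIs it was -2.23. The late mitotic members summed had a log2 ratio of 1.16 in endothelial-like cells, which was 0.08 with classes from clusters, and of -0.43 in monocyte/macrophage-like cells. With 1 library per group, neither difference between classes was tested.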

How the results depend on the processing

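No paired analysis was possible because each group was 1 library. In J558 plasmacytoma-like cells the median log2 ratio of members kept its direction under 12 of 14 alternatives and turned under both that matched depth, to -0.36 within the TAK-931 UMI quartiles and to -0.26 with vehicle depth bins weighted as TAK-931. The counts of members at least 1.5-fold higher and lower were then 1 and 15, and 0 and 8, and Cdca2 went to -0.0047 within the quartiles. With cells of 2 lineages kept, or as the mean of each cell's CPM, 5 were higher. The share of high cells differed by -14.7 points with weighted bins and by -2.23 with a limit of 40 member UMIs, and in place of 10.5 it was 5.84 with over 1000 genes, 4.69 under 10% mitochondrial UMIs, 4.66 with classes from clusters, 4.14 thinned to 2000 UMIs and 1.32 unthinned. The late to early difference was 0.14 with weighted bins, 0.36 in high cells, 0.082 with short lists and 0.079 as a median over genes.

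In monocyte/macrophage-like cells the direction held under 14 of 14 alternatives for the median, 9 of 9 for the share and 4 of 4 for the late to early difference, which was 0.76 with short lists, 0.79 in high cells and 0.30 as a median over genes. With at least 200 UMIs 1 member was higher. In cells below 20 member UMIs alone the median was -0.27, with 7 members at least 1.5-fold higher and 14 lower. Above 0 stood 14 of 43 measured members, against 4 of 50 in all cells of the class. Of the members at least 1.5-fold lower in the main result, 6 turned: Ndc80 0.057, Cenpe 0.40, Cdc20 0.48, Ube2c 0.68, Aurkb 0.81 and Hmmr 0.96. In endothelial-like cells the count of members at least 1.5-fold higher went from 14 to between 2 and 4 under 3 alternatives, in dendritic-like cells from 5 to 0 with classes from clusters. Endothelial Mki67 and Cdc20 turned to -1.41 and -0.34 with cells of 2 lineages kept, -0.077 and -0.54 as the mean of each cell's CPM, and -1.60 and -1.04 with classes from clusters, where Ube2c in fibroblast-like cells was -1.49. Over all kept cells the late to early difference was -0.12 both in high cells and as a median over genes. Depth weighting, the limit to cells below 20 member UMIs and the limit to shared clusters were chosen after seeing the data. Beyond the choice of cells, depths or genes that each alternative itself makes, the cause of these changes was not tested. The 89 TAK-931 tumor cells, the 14 vehicle T-like cells and the single library per group limit the precision.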

Other observations

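Barcodes outside the classes held members at levels that also differed between the libraries. The 82 unassigned vehicle cells held 5822 CPM of members and the 63 unassigned TAK-931 cells 1613 CPM. The 62 and 306 cells with markers of 2 lineages held 3498 and 3081 CPM. The 1124 and 3070 barcodes left out by the limits on genes and mitochondrial UMIs held 3262 and 1536 CPM, vehicle first.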
